A study of Homo sapiens with 10 samples.

Results

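Cyclin G-associated kinase (GAK), its 3 relatives AAK1, BMP2K and STK16, its neuronal counterpart DNAJC6, the clathrin chains CLTC, CLTA and CLTB and the G-type cyclins CCNG1 and CCNG2 were followed in PC-3 cells exposed to luteolin and gefitinib. The 10 genes were found by the gene name that the array's scanner output gives to each spot. They had 19 probes of the 41000 on the array, and 17 of these probes, covering all 10 genes, passed the filter on dim probes, as did 28776 probes of 19718 genes in all. PC-3 is a line of human prostate carcinoma cells that grows without androgen. Cells were sampled at 0 h, before anything was added, and after 24 h with DMSO (the solvent), 60 µM luteolin (a plant flavonoid), 60 µM gefitinib (an inhibitor of the epidermal growth factor receptor kinase) or 60 µM of each together. Every group had 2 arrays, labelled as biological replicates, and no label says whether they came from separate cultures, so the p-values may measure technical spread only. A single line stands for the tumour here, and a lower signal in a bulk extract cannot be told apart from a lower share of cells that express the gene.

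GAK and its relatives form the numb-associated kinase family. GAK and AAK1 phosphorylate the medium chains of the AP-1 and AP-2 adaptors, which hold cargo in clathrin-coated pits. GAK, unlike AAK1, ends in a clathrin-binding region and a J domain, and so recruits HSC70 to strip the coat from a finished vesicle, which DNAJC6 (auxilin) does in neurons. The coat is built from the clathrin heavy chain, CLTC, with the light chains CLTA and CLTB on it. GAK takes its name from cyclin G, which brings the phosphatase PP2A to its substrates and, in the case of CCNG2, accumulates in cells leaving the cycle.

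For the 6 drug-treated arrays, the treatment in the scanner file's name is not the treatment in the sample labels. The arrays labelled luteolin carried gefitinib in the file name, those labelled gefitinib carried both drugs and those labelled with both drugs carried luteolin. Arrays are called here by their labels. Under the file names, a change against DMSO or 0 h keeps its value and takes another drug's name, whereas the interaction of the drugs takes another value. The 75th percentile of the signal was between 1041 and 1402 on the 0 h, DMSO and luteolin arrays and between 539.8 and 865 on the other 4. All levels below are log2 signals relative to that percentile, and only levels of the same probe were compared with each other. The epithelial and PC-3 markers KRT8, KRT18, CD44, CAV1, VIM and EGFR were well above background on 10 of 10 arrays, and the leukocyte marker PTPRC on 0 of 10. KLK3, which PC-3 is known to lack, was well above background on 10 arrays by 1 of its 3 probes, at 3.38 to 5.14, and on 0 arrays by the other 2. TMPRSS2 and the endothelial marker PECAM1 were above background on 10 arrays as well, and KLK2 on 9. The part of these in the results was not tested.

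Between 0 h and 24 h in DMSO, 0 of the 10 genes passed the test (adjusted p under 0.05 from limma, which 0.0355% of all genes passed), and 2 of them, STK16 and CCNG2, had an unadjusted p under 0.05. Against DMSO, 2 of the 10 changed with the luteolin label, 3 with the gefitinib label and 1 with both drugs, where 26%, 55% and 41.3% of all genes did. All of these changes were rises, as were those of 14.3%, 32.9% and 25.1% of all genes. With luteolin CCNG2 and STK16 rose, with gefitinib the light chains CLTA and CLTB and 1 probe of AAK1, and with both drugs that same AAK1 probe. Of all genes that changed in those groups, 54.8%, 59.8% and 60.7% had risen, while quantile normalization made these shares 50.7%, 49% and 46.3%, and normexp background correction 57.1%, 73% and 72.9%. The median change of all genes against DMSO was 0.08 with luteolin, 0.22 with gefitinib and 0.16 with both drugs, while the median of the 10 genes was 0.38, 0.09 and 0.11. Against 0 h, which shares the drug arrays with these comparisons, 3 genes changed with luteolin, CCNG2, STK16 and CCNG1, all up (30.4% of all genes). With gefitinib 4 changed (54.3%), CLTA, CLTB and the same AAK1 probe up and the brightest BMP2K probe down. With both drugs 2 changed, CCNG2 and that AAK1 probe, both up (40.7%).

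**Figure D1:**
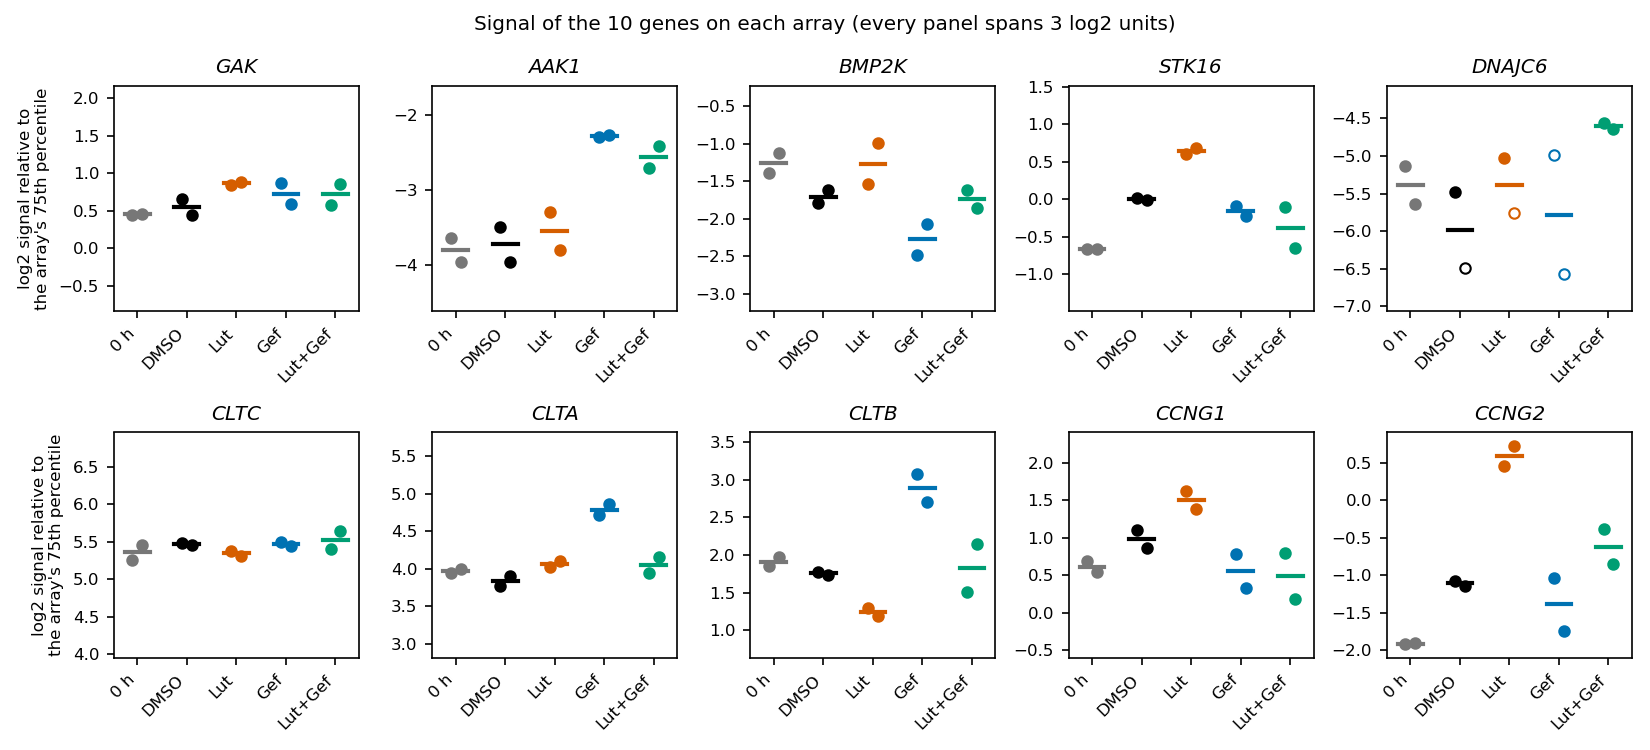
The log2 signal of each gene's brightest probe, relative to the array's 75th percentile (vertical axes, each spanning 3 log2 units), is plotted for the 5 groups (horizontal axes; Lut, luteolin; Gef, gefitinib). Points are arrays, open where the probe was not well above background, and bars are the means of 2 arrays. GAK and CLTC stay within 0.43 and 0.39 over the 10 arrays, CCNG2 and STK16 are highest with the luteolin label, and CLTA and CLTB are highest with the gefitinib label.

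GAK itself passed no test between any of the groups. Its brightest probe (NM_005255, chr4:833491-833550 on hg18) read 0.45 and 0.45 on the 0 h arrays, 0.66 and 0.44 with DMSO, 0.85 and 0.88 with luteolin, 0.86 and 0.59 with gefitinib and 0.58 and 0.85 with both drugs. The luteolin arrays lay above both DMSO arrays and above both 0 h arrays, whereas the gefitinib arrays and the arrays with both drugs overlapped the DMSO arrays and lay above both 0 h arrays. Between luteolin and DMSO the arrays lay apart for 8 of the 10 genes, in either direction, and for 73.8% of all genes. Against DMSO the change was 0.31 with luteolin (95% interval -0.09 to 0.71, adjusted p = 0.232 from limma), 0.18 with gefitinib (-0.22 to 0.57, adjusted p = 0.418) and 0.17 with both (-0.23 to 0.56, adjusted p = 0.467). As a fold, the interval with luteolin ran from 0.941 to 1.64, so a 2-fold rise lay outside it. Against 0 h the changes were 0.41, 0.28 and 0.27 (adjusted p = 0.110, 0.209 and 0.247), and DMSO alone gave 0.10. In order, the group means were 0.86 ± 0.02 (mean ± SD, n = 2) with luteolin, 0.73 ± 0.19 with gefitinib, 0.72 ± 0.19 with both drugs, 0.55 ± 0.15 with DMSO and 0.45 ± 0.0035 at 0 h, and no neighbours in this order differed past the threshold.

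The other GAK probe (chr4:834754-834813) followed the first over the 10 arrays (r = 0.94, a description over arrays that share groups and slides). It read -1.74 and -1.74 at 0 h, -1.30 and -1.66 with DMSO, -1.21 and -1.20 with luteolin, -1.31 and -1.67 with gefitinib and -1.50 and -1.21 with both drugs. Its luteolin arrays, too, lay above both DMSO arrays and both 0 h arrays. Its changes against DMSO were 0.28, -0.01 and 0.12 for luteolin, gefitinib and both, with adjusted p of 0.352, 0.971 and 0.637 from limma. Neither probe gave a difference between any of the drug-treated groups that passed the test.

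Set beside all genes, GAK hardly varied on the scaled signal. Its range over the 10 arrays, 0.43 on the log2 scale, was larger than that of only 0.416% of the 19718 genes, whose median range was 1.55. These include genes that were dim on some arrays. GAK was well above background on all 10, as were 16272 other genes, and its place among those alone was not computed. The processed signal of GAK before scaling was 2131 and 1745 with DMSO, 1183 and 945.6 with gefitinib and 1292 and 975.8 with both drugs. The 75th percentiles of the same arrays were 1350 and 1283, 651 and 628, and 865 and 540. CLTC had a range of 0.39, at the 0.203 percentile. CCNG2 was at the other end of the 10 genes, with 2.63 at the 84.8 percentile, and the remaining 7 genes had ranges from 1.09 to 2.02. Under quantile normalization the range of GAK was 0.41, at the 1.31 percentile, and under normexp correction it was 0.45, at the 0.928 percentile. The range of CLTC became 0.85 under quantile normalization and 0.27 under normexp correction, both settings being chosen for the ranges after seeing the data.

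**Figure D2:**
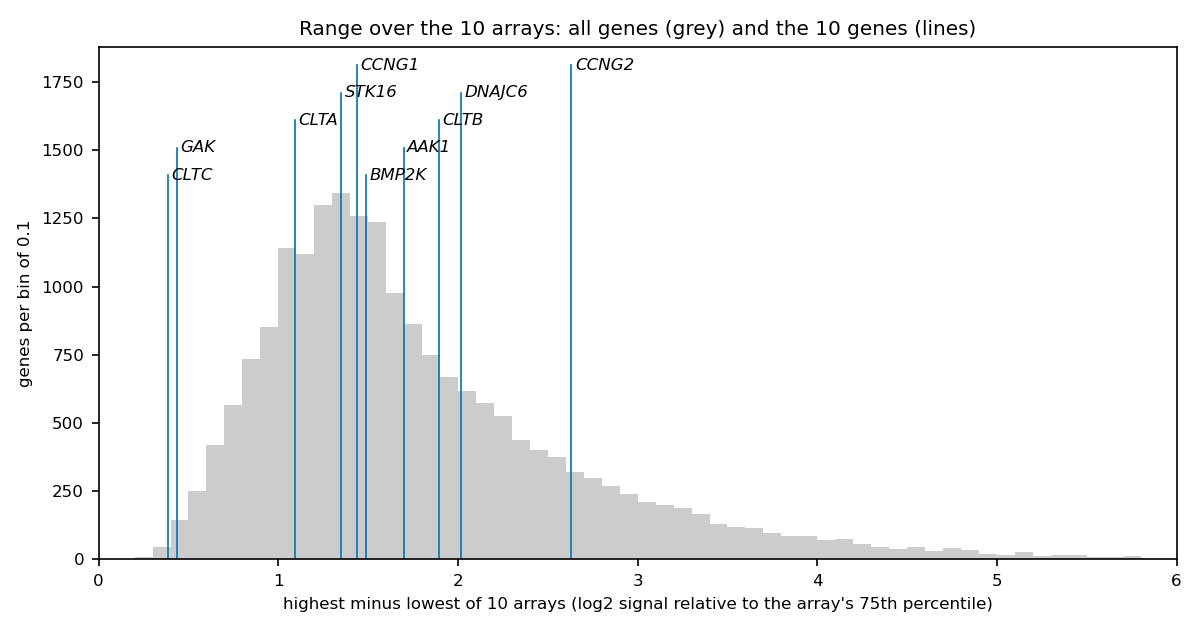
Grey bars count genes by the range of their log2 signal over the 10 arrays (horizontal axis, in bins of 0.1; 40 genes above 6 are not drawn), and lines mark the 10 genes. GAK (0.43) and CLTC (0.39) lie at the narrow edge of the distribution, and CCNG2 (2.63) lies in its upper tail.

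The promoter of GAK is shown because the narrow range of this gene on the scaled signal sets it apart from most others. The 250 bases before its start site in RefSeq (GRCh38.p14, chr4:932317-932566, - strand) are 73.6% G and C and are printed 5′ to 3′. Capitals mark, here and below, matches on either strand to CACGTG (an E-box, also counted within GTCACGTG), TGACGTCA (the cyclic AMP response element) and GTAAACA (a forkhead site), of which this window has none. These motifs were chosen after the windows were seen, and 9 of the 10 genes had a window.
GAK: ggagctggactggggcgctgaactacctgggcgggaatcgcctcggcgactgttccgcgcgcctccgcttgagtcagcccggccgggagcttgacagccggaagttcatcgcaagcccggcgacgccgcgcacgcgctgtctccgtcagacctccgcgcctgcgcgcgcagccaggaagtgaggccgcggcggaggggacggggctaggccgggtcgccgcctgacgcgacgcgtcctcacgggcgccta

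The genes whose level was most like that of GAK over the 10 arrays were STXBP2 (r = 0.95), the transcript ENST00000382123 (r = 0.95) and LAMB2 (r = 0.95), out of 16272 genes well above background on every array. Among the 10 genes, CCNG2 came closest, with r = 0.71, and CLTB was the least related, with r = 0.02. These correlations describe 10 arrays of 5 groups and have no test.

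Of GAK's relatives, AAK1, the adaptor-associated kinase, gave a different answer from each of its 3 probes. The brightest one (NM_014911, chr2:69563344-69563403) read -3.64 and -3.96 at 0 h, -3.49 and -3.96 with DMSO, -3.30 and -3.80 with luteolin, -2.29 and -2.27 with gefitinib and -2.71 and -2.41 with both drugs. On the scaled signal, the 4 arrays with a gefitinib label were its highest, and none of them overlapped the other 6. Before scaling, this probe read 132.9 and 130.7 with gefitinib and 132.1 and 101.5 with both drugs. It read 119.9 and 82.59 with DMSO and 112.1 and 75.43 at 0 h. The 75th percentiles were lowest on the 4 arrays with a gefitinib label, from 539.8 to 865. After scaling, the probe rose 2.73-fold against DMSO with gefitinib (log2 1.45, SE 0.24, adjusted p = 0.00228 from limma). With both drugs it rose 2.24-fold (log2 1.16, SE 0.24, adjusted p = 0.00799), and with luteolin it changed by 0.18 on the log2 scale (adjusted p = 0.640). Without DMSO replicate 2 the change with both drugs was 0.93 (adjusted p = 0.0651 from limma).

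The probe that lies nearest to it (ENST00000360555, chr2:69561926-69561985) was lowest with gefitinib. It read -4.60 and -4.74 at 0 h, -4.81 and -5.09 with DMSO, -5.46 and -4.45 with luteolin, -5.00 and -5.03 with both drugs and -7.20 and -7.36 with gefitinib. Both gefitinib arrays were not well above background, so the fall with gefitinib is known only as at least 1.07-fold against DMSO and at least 1.30-fold against 0 h (adjusted p = 0.000724 and 0.000422 from limma, on signals not well above background). These limits take the mean of the brighter group and, on each dim array, either the probe's own signal or the dimmest one counted as well above background, whichever was higher. This probe passed the filter through the 0 h, DMSO and luteolin arrays, where it was brighter. The third AAK1 probe (chr2:69611317-69612710, which spans 1394 bases of the genome) changed by -0.32 with gefitinib and -0.71 with both drugs (adjusted p = 0.303 and 0.0510 from limma). Over the 10 arrays the brightest probe ran against the other 2, with r = -0.69 and r = -0.74. The rise of AAK1 is therefore a rise of 1 probe on the scaled signal. The median over the 3 probes changed by -0.32 with gefitinib (adjusted p = 0.291) and by -0.70 with both drugs (adjusted p = 0.0511, both from limma).

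**Figure D3:**
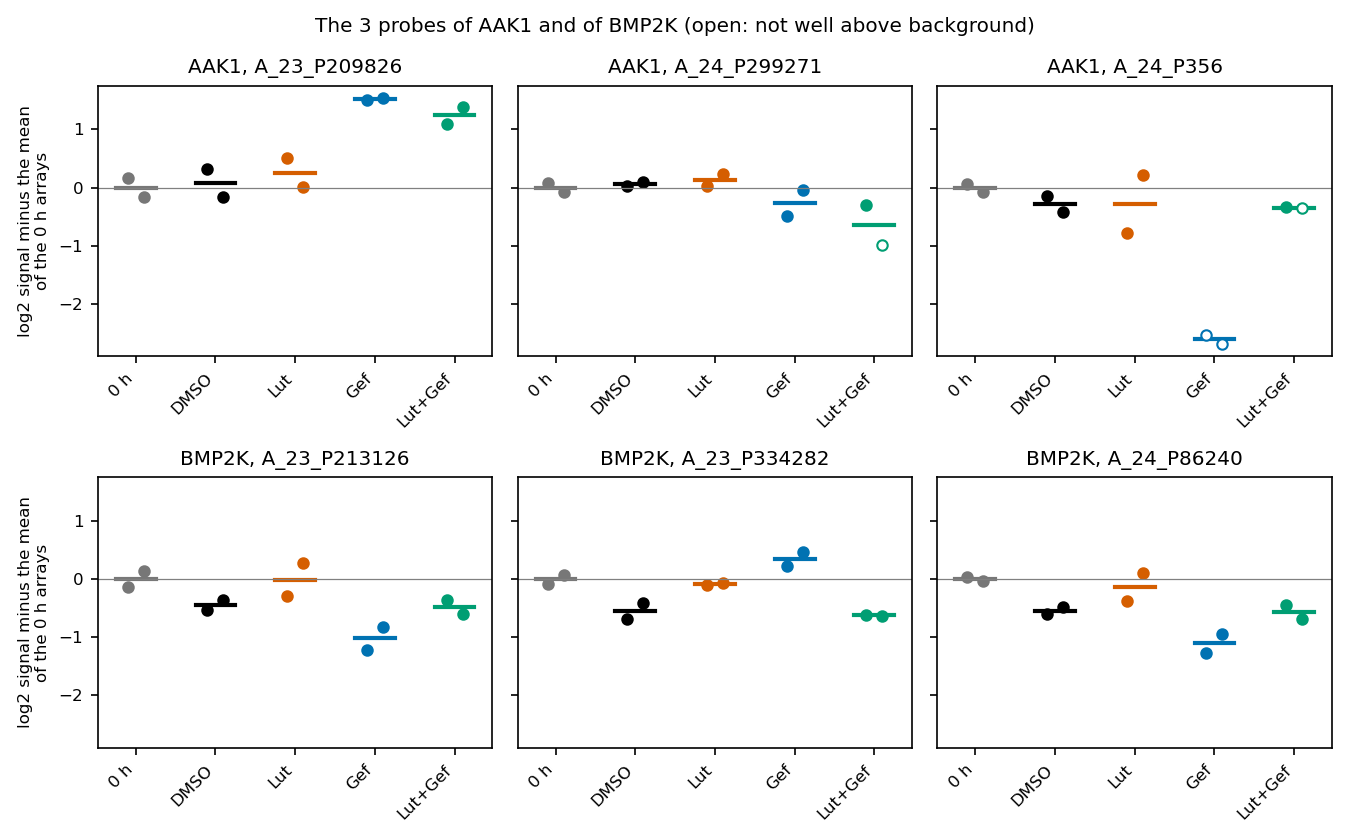
Each panel gives 1 probe of AAK1 (top) or BMP2K (bottom), as the log2 signal minus the mean of the 0 h arrays (vertical axis, common to all panels), for the 5 groups (horizontal axis). Points are arrays, open where not well above background, and bars are means of 2 arrays. With the gefitinib label the AAK1 probes stand 1.53 above and 0.26 below 0 h and, for the last, not well above background, and the BMP2K probes 1.02 below, 0.35 above and 1.10 below.

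BMP2K, the kinase induced by bone morphogenetic protein, also differed between its probes. The probe of AB015331 (chr4:80052403-80052462) read -1.39 and -1.13 at 0 h, -1.79 and -1.62 with DMSO, -1.54 and -0.99 with luteolin, -2.48 and -2.08 with gefitinib and -1.63 and -1.86 with both drugs. The gefitinib arrays were the lowest. The change with gefitinib was -0.57 against DMSO (adjusted p = 0.0713 from limma) and -1.02 against 0 h (adjusted p = 0.00799), which is 2.03-fold lower. Without 0 h replicate 2 the latter was -0.89 (adjusted p = 0.0558), and as the median over the 3 probes it was -0.35 (adjusted p = 0.190, both from limma).

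A probe of NM_198892 in the same stretch (chr4:80052033-80052092) followed it with r = 0.98 and fell by 0.56 against DMSO with gefitinib (adjusted p = 0.0491 from limma). The probe of NM_017593 (chr4:80019230-80019289), which lies away from both, read -3.0 and -2.72 with DMSO and -2.08 and -1.85 with gefitinib. It rose 1.86-fold against DMSO (log2 0.89, SE 0.17, adjusted p = 0.00352 from limma), and its correlation with the other 2 probes was -0.14 and -0.15. With both drugs all 3 probes were within 0.08 of DMSO, and with luteolin they were 0.41 to 0.47 above it (adjusted p = 0.0743 to 0.211 from limma).

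STK16, a membrane-bound kinase of the same family found at the Golgi, was highest with luteolin on both of its probes. The brighter probe (NM_003691, chr2:219821595-219821654) read -0.66 and -0.67 at 0 h, 0.01 and -0.01 with DMSO, 0.61 and 0.68 with luteolin, -0.10 and -0.23 with gefitinib and -0.11 and -0.66 with both drugs. The 0 h arrays and the second array with both drugs were the lowest, and the luteolin arrays overlapped no other group. It rose 2.48-fold with luteolin against 0 h (log2 1.31, SE 0.19, adjusted p = 0.00222 from limma) and 1.56-fold against DMSO (log2 0.64, SE 0.19, adjusted p = 0.0429). The other probe overlaps it by position and gave 1.22 and 0.59 (adjusted p = 0.00199 and 0.0416). DMSO itself stood 0.66 above 0 h (adjusted p = 0.573 from limma). The call against DMSO lay close to the threshold. It was lost with slide as a block (adjusted p = 0.0591), with no filter on dim probes (adjusted p = 0.0854) and on leaving out any 1 of the 0 h, DMSO, luteolin or gefitinib arrays (adjusted p = 0.0518 to 0.185, all from limma).

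DNAJC6, the neuronal auxilin, was dim. Its brighter probe was well above background on 6 of 10 arrays, and the other on 0 of 10. The brighter one read -5.13 and -5.64 at 0 h, -5.48 and -6.49 with DMSO, -5.03 and -5.75 with luteolin, -4.99 and -6.58 with gefitinib and -4.56 and -4.64 with both drugs. The arrays with both drugs were the highest and overlapped no other array. Their difference from DMSO was 1.39 (SE 0.53, adjusted p = 0.0650 from limma). It passed the threshold with slide as a block (adjusted p = 0.0255) and under normexp correction (0.92, adjusted p = 0.00144, both from limma). The probe passed the filter through the 0 h arrays and the arrays with both drugs.

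The clathrin heavy chain, CLTC, passed no test between groups on the scale used here. Its probe (NM_004859, chr17:55126681-55126740) read 5.26 and 5.46 at 0 h, 5.48 and 5.45 with DMSO, 5.37 and 5.32 with luteolin, 5.50 and 5.45 with gefitinib and 5.40 and 5.65 with both drugs. All 10 arrays lay within 0.39 of each other. The changes against DMSO were -0.12 with luteolin (-0.49 to 0.24), 0.01 with gefitinib (-0.36 to 0.37) and 0.06 with both (-0.31 to 0.42), with adjusted p of 0.612, 0.976 and 0.792 from limma. The call depends on the scaling. The processed signal itself, before scaling, was 60450 and 56100 with DMSO and 29420 and 27440 with gefitinib, on arrays whose 75th percentiles were 1350 and 1283 against 651 and 628. Under quantile normalization CLTC changed by -0.80 on the log2 scale with gefitinib (adjusted p = 0.00316 from limma) and by -0.50 with both drugs (adjusted p = 0.0248).

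The light chains, which regulate the heavy chain's assembly, were higher on the scaled signal with the gefitinib label. CLTA (NM_007096, chr9:36201781-36201840) read 3.95 and 4.0 at 0 h, 3.77 and 3.91 with DMSO, 4.02 and 4.10 with luteolin, 4.72 and 4.86 with gefitinib and 3.95 and 4.16 with both drugs. Only the gefitinib arrays stood apart from the rest, all of which lay between 3.77 and 4.16. Before scaling, CLTA read 18400 and 19270 with DMSO and 17110 and 18280 with gefitinib. The 75th percentiles of these arrays were 1350 and 1283 against 651 and 628. After scaling, the rise against DMSO was 1.93-fold (log2 0.95, SE 0.16, adjusted p = 0.00213 from limma). The log2 change was 0.22 with luteolin and 0.21 with both drugs (adjusted p = 0.336 and 0.292). On slide 1, where single arrays of DMSO and gefitinib lay together, the difference was 0.95. Under quantile normalization the rise was 0.31 (adjusted p = 0.105 from limma), and the one against 0 h, 0.81 before it, was 0.14 (adjusted p = 0.424).

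CLTB (NM_007097, chr5:175752402-175752461) read 1.85 and 1.97 at 0 h, 1.78 and 1.74 with DMSO, 1.29 and 1.18 with luteolin, 3.08 and 2.71 with gefitinib and 1.50 and 2.14 with both drugs. The gefitinib arrays were the highest and the luteolin arrays the lowest, and neither pair overlapped any other array. Before scaling, CLTB read 4623 and 4284 with DMSO and 5494 and 4103 with gefitinib. After scaling, it rose with gefitinib 2.20-fold against DMSO (log2 1.13, SE 0.23, adjusted p = 0.00471 from limma) and 1.98-fold against 0 h (adjusted p = 0.00822). The former passed the test in each of 20 alternative settings that kept the labels, and the latter was lost without gefitinib replicate 1 (0.80, adjusted p = 0.0504 from limma). With luteolin the change was -0.52 against DMSO (adjusted p = 0.136) and -0.67 against 0 h (adjusted p = 0.0583), both short of the threshold. The latter passed under normexp correction (-0.71, adjusted p = 0.0168) and quantile normalization (-0.71, adjusted p = 0.0307, both from limma). With only the groups compared, the luteolin changes passed against DMSO (adjusted p = 0.0292) and against 0 h (adjusted p = 0.0236, both from limma). Over the 20 settings, the CLTB change with gefitinib against DMSO ran from 0.80 to 1.32 on the log2 scale. A further CLTB probe was well above background on 0 of 10 arrays.

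The windows before the start sites of both light chain genes are shown because these genes rose in the same group after scaling. The CLTA window (chr9:36190671-36190920, + strand, GRCh38.p14) holds none of the motifs. The CLTB window (chr5:176416570-176416819, - strand, GRCh38.p14) holds TGACGTCA, in capitals, which is present in 1.65% of the 35116 windows of this length. RefSeq gives CLTB 2 more starts, of which the one with a window overlapping this also has the match and the one at chr5:176410824-176411073 does not. A match is a description of the letters and no evidence of binding.
CLTA: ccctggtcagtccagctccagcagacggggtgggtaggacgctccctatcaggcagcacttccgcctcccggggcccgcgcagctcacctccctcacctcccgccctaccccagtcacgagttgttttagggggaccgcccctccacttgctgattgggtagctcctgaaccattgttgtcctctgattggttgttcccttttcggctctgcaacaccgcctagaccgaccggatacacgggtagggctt
CLTB: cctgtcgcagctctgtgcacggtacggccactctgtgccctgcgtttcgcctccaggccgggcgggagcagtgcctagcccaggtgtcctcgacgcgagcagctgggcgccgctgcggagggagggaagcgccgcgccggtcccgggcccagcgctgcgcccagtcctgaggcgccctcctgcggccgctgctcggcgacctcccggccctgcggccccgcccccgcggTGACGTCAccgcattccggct

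**Figure D4:**
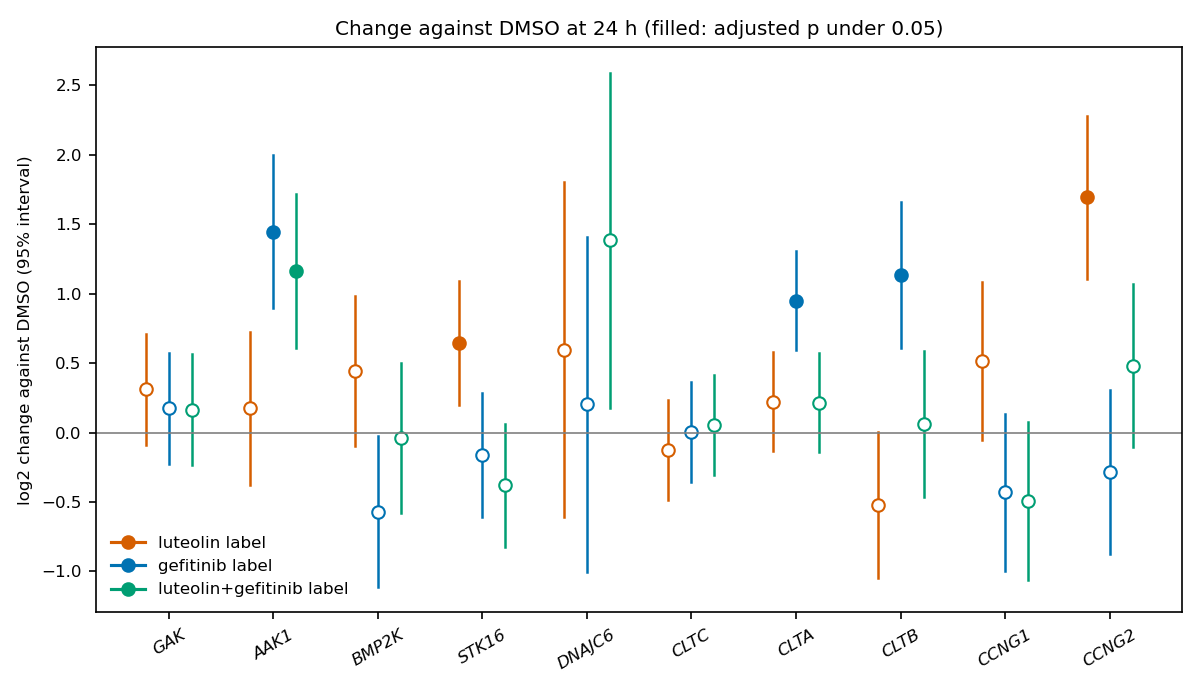
Log2 change against DMSO of each gene's brightest probe (vertical axis) with the luteolin, gefitinib and combined labels, with 95% intervals from limma. Filled points passed an adjusted p under 0.05. The 3 intervals of GAK and of CLTC include 0, CLTA (0.95) and CLTB (1.13) are raised with gefitinib, and CCNG2 (1.69) is raised with luteolin.

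CCNG2, the cyclin of the pair that is associated with arrest, made the largest change of the 10 genes against DMSO by their brightest probes. Its brighter probe (NM_004354, chr4:78306719-78306778) read -1.91 and -1.90 at 0 h, -1.07 and -1.14 with DMSO, 0.46 and 0.72 with luteolin, -1.03 and -1.74 with gefitinib and -0.39 and -0.85 with both drugs. The luteolin arrays were the highest, the arrays with both drugs came next, and the 0 h arrays were the lowest, while the gefitinib arrays lay on both sides of the DMSO arrays. With luteolin it rose 3.24-fold against DMSO (log2 1.69, SE 0.26, adjusted p = 0.00297 from limma) and 5.65-fold against 0 h (log2 2.50, SE 0.26, adjusted p = 0.000561). With both drugs it stood 2.44-fold above 0 h (adjusted p = 0.00702) and 0.48 above DMSO on the log2 scale (adjusted p = 0.161). The rise with luteolin against DMSO passed in each of 20 alternative settings that kept the labels, with log2 changes from 1.56 to 1.82.

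The other CCNG2 probe (chr4:78301734-78301883) read -4.11 and -4.35 with DMSO and -2.63 and -2.43 with luteolin. Its rise of 3.25-fold (adjusted p = 0.0160 from limma) was close to that of the first, and the probes correlated with r = 0.97 over the 10 arrays. DMSO alone stood 0.80 above 0 h on the brighter probe, with an unadjusted p of 0.0134 and an adjusted p of 0.634 from limma.

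The window before the CCNG2 start (chr4:77156957-77157206, + strand, GRCh38.p14) is shown because this gene changed most. It holds GTCACGTG, in capitals, which occurs in 2.16% of the 35116 windows, where the shorter CACGTG occurs in 6.34%. It does not hold GTAAACA, which 2.98% of windows do.
CCNG2: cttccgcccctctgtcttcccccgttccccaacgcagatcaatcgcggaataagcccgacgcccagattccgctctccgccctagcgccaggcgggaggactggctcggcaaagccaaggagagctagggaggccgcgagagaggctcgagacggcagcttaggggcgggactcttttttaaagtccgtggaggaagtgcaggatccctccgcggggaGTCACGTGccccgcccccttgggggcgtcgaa

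CCNG1, the other G-type cyclin, was also highest with luteolin. It read 0.69 and 0.54 at 0 h, 1.10 and 0.86 with DMSO, 1.62 and 1.38 with luteolin, 0.78 and 0.32 with gefitinib and 0.80 and 0.18 with both drugs (NM_004060, chr5:162803587-162803646). The luteolin arrays were the highest, the DMSO arrays came next, and the other 6 arrays overlapped. It rose 1.84-fold with luteolin against 0 h (log2 0.88, SE 0.25, adjusted p = 0.0290 from limma), a call that was lost with slide as a block (0.71, adjusted p = 0.0505) and on leaving out either array of either group (adjusted p = 0.0821 to 0.131). Against DMSO its change with luteolin was 0.52 (adjusted p = 0.165). Over the 10 arrays CCNG1 correlated with STK16 at r = 0.87 and with CCNG2 at r = 0.74, and STK16 with CCNG2 at r = 0.86, as a description of arrays that share groups.

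Compared directly, the arrays labelled luteolin and gefitinib differed in 7 of the 10 genes, where 60.4% of all genes did. CCNG2 (1.98), BMP2K (1.01), CCNG1 (0.95) and STK16 (0.81) were higher on the log2 scale with luteolin, and CLTB (-1.65), AAK1 (-1.27) and CLTA (-0.73) were higher with gefitinib. GAK (0.14, -0.26 to 0.53), CLTC and DNAJC6 did not pass. The AAK1 difference was that of its brightest probe only. The third AAK1 probe gave 0.38 (adjusted p = 0.215) and the median over the 3 probes 0.38 (adjusted p = 0.205, both from limma). The AAK1 probe of ENST00000360555 was at least 1.07-fold higher with luteolin (adjusted p = 0.000403 from limma), with its gefitinib arrays not well above background. The BMP2K difference was that of its brightest probe, and the probe of NM_017593 gave -0.43 (adjusted p = 0.0555) and the median over the 3 probes 0.22 (adjusted p = 0.396, from limma). Without luteolin replicate 2 the BMP2K difference was 0.73 (adjusted p = 0.0511). The CLTA difference was -0.06 under quantile normalization (adjusted p = 0.752), and that of CCNG1 was lost without luteolin replicate 1 (0.83, adjusted p = 0.0638) or gefitinib replicate 2 (0.72, adjusted p = 0.0673).

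The arrays with both drugs differed from those with luteolin in 4 genes (41.8% of all genes). CCNG2 (-1.21), STK16 (-1.02) and CCNG1 (-1.01) were lower. The third AAK1 probe gave -0.77 (adjusted p = 0.0381), with 1 of the 2 arrays with both drugs well above background. The AAK1 probe of ENST00000360555 gave -0.06 (adjusted p = 0.887), and the median over the 3 probes was -0.76 (adjusted p = 0.0381, all from limma). Only the brightest AAK1 probe (0.99) was higher. The last was lost without luteolin replicate 2 (0.74, adjusted p = 0.0909) or replicate 2 with both drugs (0.84, adjusted p = 0.07), that of CCNG2 without luteolin replicate 2 (-1.08, adjusted p = 0.0535) and that of CCNG1 without luteolin replicate 1 (-0.89, adjusted p = 0.0746) or replicate 2 with both drugs (-0.70, adjusted p = 0.0681, all from limma). From those with gefitinib they differed in 3 (47.3% of all genes), with CLTB (-1.07) and CLTA (-0.74) lower and CCNG2 (0.77) higher. The CCNG2 call passed in 6 of 20 alternative settings. It was 0.41 (adjusted p = 0.219) without gefitinib replicate 2 and 0.53 (adjusted p = 0.187) without replicate 1 of both drugs, was lost without any 1 of the 0 h, DMSO or luteolin arrays (adjusted p = 0.0519 to 0.0612), and was 0.35 (adjusted p = 0.488) on the other probe. The CLTA call was lost with only these groups fitted (adjusted p = 0.0762). All of these comparisons share arrays with each other.

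The interaction, obtained by taking the single-drug changes from DMSO away from the combined change, passed the test for 2 of the 10 genes and for 34.2% of all genes. It was -0.96 on the log2 scale for CLTA (SE 0.22, adjusted p = 0.0117 from limma) and -0.86 for STK16 (SE 0.28, adjusted p = 0.0420). These counts take each gene's brightest probe. The BMP2K probe of NM_017593 passed as well (-1.44, adjusted p = 0.00292), whereas the brightest BMP2K probe gave 0.09 (adjusted p = 0.849). The AAK1 probe of ENST00000360555 passed with a positive value (adjusted p = 0.00451, all from limma), but its gefitinib arrays were not well above background. The value of STK16 passed in 8 of 20 alternative settings, and that of CLTA was lost without DMSO replicate 1 (-0.89, adjusted p = 0.0602). For CCNG2 it was -0.93 (adjusted p = 0.0818) and for GAK -0.32 (adjusted p = 0.337). With the treatments of the file names, CLTA gave 0.51 (adjusted p = 0.0912) and STK16 -0.42 (adjusted p = 0.248), whereas CCNG2 (-2.46, adjusted p = 0.00116), CLTB (1.59, adjusted p = 0.00495) and BMP2K (-0.97, adjusted p = 0.0439) passed, so the genes that passed here changed with the assignment of the arrays.

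The partners of these genes in coated pits were described from 4 lists. Of 13 subunits of the AP-1 and AP-2 adaptors, whose medium chains GAK and AAK1 phosphorylate, 9 changed with gefitinib, 7 up and 2 down (69.2% against 55% of all genes), with a median log2 change of 0.54 against 0.22 for all genes, or 0.41 under quantile normalization against 0.05. With luteolin 2 changed, both down (15.4% against 26%), and with both drugs 1, down (7.69% against 41.3%). AP1G1, the gamma subunit of AP-1, read 0.90 and 0.97 with DMSO and -0.22 and -0.25 with gefitinib, a log2 change of -1.17 (adjusted p = 0.000637 from limma). AP1S1, a small subunit of AP-1, changed by -1.15 with both drugs (adjusted p = 0.00190).

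Of 26 genes tested that start coats, bring cargo into them or help them to assemble, 6 changed with luteolin (4 up, 2 down), 9 with gefitinib (4 up, 5 down) and 12 with both drugs (4 up, 8 down), which is 23.1%, 34.6% and 46.2% of the list, against 26%, 55% and 41.3% of all genes. Its median was 0.15, -0.13 and -0.25 on the log2 scale, against 0.08, 0.22 and 0.16 for all genes, and under normexp correction it was -0.05 with gefitinib and -0.07 with both drugs. DAB2, an adaptor for receptors of the LDL family, read -0.30 and -0.35 with DMSO and -2.21 and -2.84 with both drugs, the largest fall of these 26 (-2.19, adjusted p = 0.000894 from limma). NECAP1, which binds the ears of the adaptors, and STON1, a stonin, changed by -1.42 and -1.34 with gefitinib (adjusted p = 0.00881 and 0.00543), or by -0.71 and -0.22 under normexp correction, where STON1 no longer passed (adjusted p = 0.242). With luteolin, REPS2, an EH-domain protein, rose from -0.97 and -1.20 to 0.44 and 0.78 (log2 change 1.70, adjusted p = 0.00143), and HIP1R, which ties clathrin to actin, by 1.53 (adjusted p = 0.00115). EPS15L1, an EPS15 relative in coat initiation, rose by 1.21 with gefitinib (adjusted p = 0.000970).

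Among 19 genes of vesicle scission and uncoating, 4 changed with luteolin (2 up, 2 down), 11 with gefitinib (8 up, 3 down) and 6 with both drugs, all down on this scale (21.1%, 57.9% and 31.6% of the list, against 26%, 55% and 41.3% of all genes). Under normexp correction 10 rose and 1 fell with gefitinib, and 3 rose and 6 fell with both drugs. The list's median was -0.19, 0.46 and -0.01, and under quantile normalization -0.24, 0.29 and -0.23, while normexp correction gave 0.07 with both drugs. DNM3, a dynamin, changed by -2.03 with luteolin (adjusted p = 0.00155 from limma) and INPP5B, a phosphoinositide phosphatase, by -1.21 (adjusted p = 0.00182), each with 1 of the 2 luteolin arrays well above background. Under normexp correction the change of DNM3 was -0.91 (adjusted p = 0.00215), and that of INPP5B was -0.48 and did not pass (adjusted p = 0.0649). PACSIN1 changed by -1.68 with both drugs (adjusted p = 0.00272), and SH3GL2, endophilin A1, rose by 1.28 with gefitinib (adjusted p = 0.00634). Of 12 partners and relatives of the G-type cyclins, 1 changed with luteolin, 3 with gefitinib and 4 with both drugs (8.33%, 25.0% and 33.3% of the list, against 26%, 55% and 41.3% of all genes), and 0 did so by 2-fold or more, where 13.4%, 29.9% and 19.8% of all genes did. The medians of these 12 were 0.00, -0.07 and -0.04, and the one with gefitinib was 0.03 under normexp correction.

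**Figure D5:**
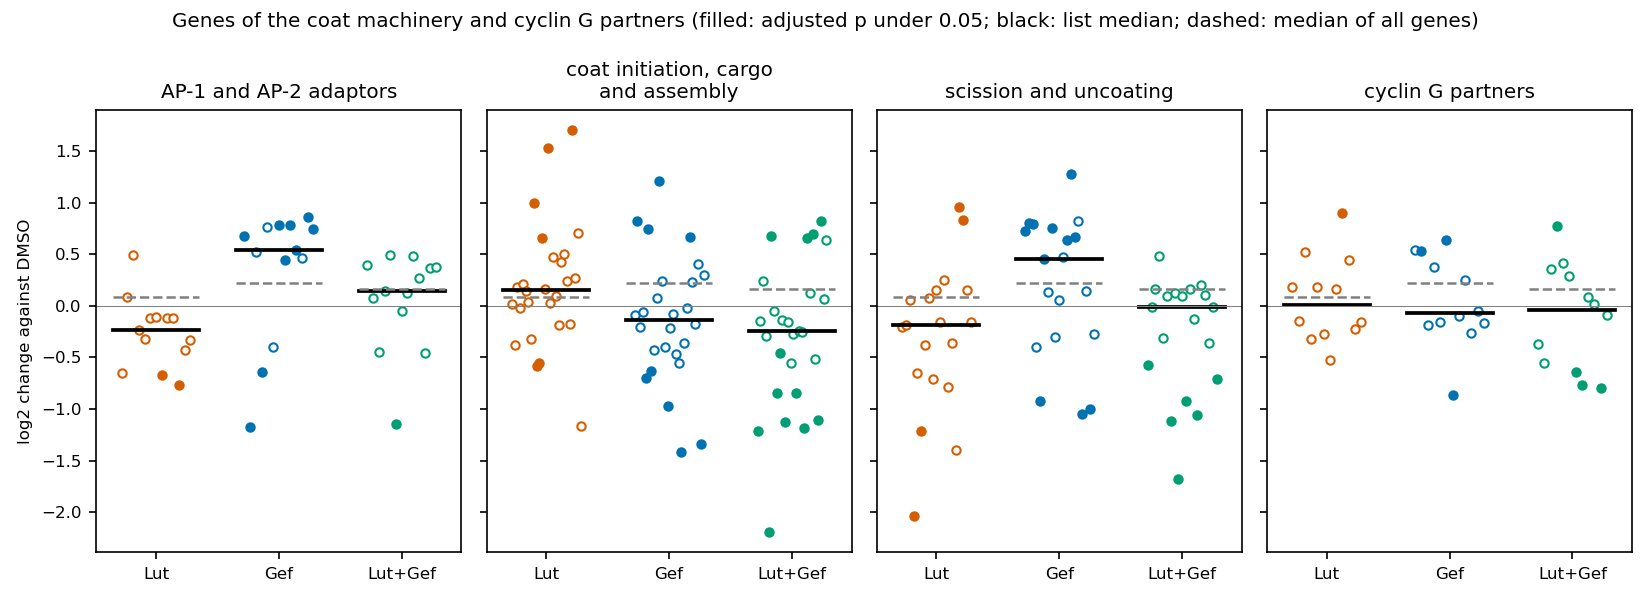
Log2 change against DMSO (vertical axis) of the genes of 4 lists with the luteolin (Lut), gefitinib (Gef) and combined (Lut+Gef) labels. Points are genes, filled where the adjusted p was under 0.05, black lines are list medians and dashed lines are the medians of all genes. The adaptor subunits have a median of 0.54 with gefitinib, against 0.22 for all genes.

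EGFR, the receptor that gefitinib inhibits and whose trafficking GAK serves, read -0.29 and -0.32 at 0 h, -0.43 and -0.43 with DMSO, -0.39 and 0.11 with luteolin, 0.13 and 0.19 with gefitinib and -1.09 and -1.57 with both drugs. The arrays with both drugs were the lowest and overlapped no other array. Its change was -0.91 with both drugs (adjusted p = 0.0136 from limma) and 0.58 with gefitinib (adjusted p = 0.0493, or 0.0647 under quantile normalization), while that with luteolin, 0.29, did not pass (adjusted p = 0.377).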

How the data were processed

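Total RNA of PC-3 cells was labelled with Cy3 and hybridised to 10 single-colour Agilent arrays, 2 for each of 5 groups. The authors deposited, per the file headers, the output of Agilent Feature Extraction 10.7.3.1, in which each spot has a mean, a background and a processed signal intensity on a linear scale, background-subtracted by the scanner software and not normalized between arrays. The table of values deposited beside it held the same processed intensity for 45015 of 45015 spots (tolerance 1e-04) and was used no further. Probe positions are those of the files (hg18). The 10 genes were found by the names of the array design. Other genes have the RefSeq symbol of their accession where one matched (23958 probes), and otherwise the name of the array design.

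Each processed signal was divided by the array's 75th percentile over non-control spots and put on the log2 scale. Outlier spots (72 to 125 an array) were dropped before averaging over each probe. A probe was kept if it was well above background, in 50% of its spots or more, on both arrays of 1 group or more. Its brightest kept probe stood for each gene, which is the level and the change given unless another probe is named. Groups came from the sample labels. The limma package (3.58.1, R 4.3.3) was fitted to all 10 arrays and 28776 probes with the 5 groups, with 5 residual and 3.36 prior degrees of freedom, and p-values of the 11 comparisons were adjusted by Benjamini-Hochberg over all kept probes. A gene was called changed at an adjusted p under 0.05. The share of genes called is over 19718 genes. The test was tried on simulated data first.

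The 10 genes, the lists and the tests were chosen with earlier results of these data known. From the lists, genes are named that changed by 2-fold or more against DMSO in 1 drug group or more, up to the 3 largest rises and 3 largest falls of a list. The genes closest to GAK were ranked by Pearson's r among those well above background on 10 arrays. Alternatives were normexp background correction (offset 50), quantile normalization, other filters, the median over a gene's probes, a 2-fold minimum, slide as a block (3 slides), a replicate block, only the groups compared, the methods' t-test, the treatments of the file names and leaving out each array. Promoter windows came from RefSeq (GRCh38.p14). The number of arrays, 2 a group, limits the precision: the median SD within a group was 0.0907 to 0.255 on the log2 scale.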

Additional observations from a re-analysis of the deposited data

Results flagged for a closer look

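By each gene's brightest probe, the interaction of the drugs passed the test for 2 of the 10 genes. Passing means that the change with both drugs differed from the sum of the changes with each. A dimmer probe of BMP2K and a dimmer one of AAK1 also passed, as given above. For CLTA the value was -0.96 on the log2 scale (SE 0.22, adjusted p = 0.0117 from limma), with changes against DMSO of 0.22 with luteolin, 0.95 with gefitinib and 0.21 with both drugs. For STK16 the value was -0.86 (SE 0.28, adjusted p = 0.0420), with changes of 0.64, -0.16 and -0.38. The STK16 value passed in 8 of 20 settings that kept the labels: it was lost with slide as a block (adjusted p = 0.0749), with no filter on dim probes (0.0814), with only the groups compared (0.0663) and without any 1 of the 0 h, DMSO, luteolin or gefitinib arrays (0.0641 to 0.121), and its other probe gave -0.73 (adjusted p = 0.0544, all from limma). The CLTA value was lost without DMSO replicate 1 (-0.89, adjusted p = 0.0602). With the treatments that the file names give, neither passed, at 0.51 (adjusted p = 0.0912) for CLTA and -0.42 (adjusted p = 0.248) for STK16. No group had enough arrays to look for single outlying arrays.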

How the results depend on the processing

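Of 2379 values of single genes under alternatives, 2192 kept their side of the threshold (82 of them with the other sign and not past it either way), 97 were no longer past it, 52 newly passed and 38 reversed. GAK stayed short of the threshold in limma throughout. Only the methods' t-test without adjustment called it, with luteolin against 0 h (0.41, p = 0.0234 over 2 arrays a group, not an exact or permutation p), and that test gave 2 genes for DMSO, 1 for gefitinib and 1 for both drugs against 0 h, or 0 for luteolin, gefitinib and both drugs after adjustment. With a 2-fold minimum the count of the 10 genes became 1 for luteolin against DMSO, 2 for gefitinib against 0 h, 0 for the interaction, 4 for luteolin against gefitinib and 1 for both drugs against gefitinib. In the order luteolin, gefitinib and both drugs, the lists then gave 0, 1 and 1 for the adaptors, 2, 3 and 5 for coat factors, 2, 3 and 3 for scission and 0, 0 and 0 for cyclin partners. The median over probes gave 2 and 1 genes for gefitinib and both drugs against 0 h and 0 for both against DMSO, and reversed AAK1 in 6 comparisons, at -0.32 and -0.26 for gefitinib and -0.70 and -0.63 for both drugs against DMSO and 0 h, 0.38 for luteolin against gefitinib and -0.76 for both against luteolin. Without the filter the adaptors, coat factors and scission list had 1, 3 and 2 calls with luteolin, the cyclin partners 1 with gefitinib and 2 with both, and the 10 genes 1 in the interaction and 1 for luteolin against DMSO. With probes above background on every array the scission list had 2 calls with luteolin. Normexp correction gave 7 genes for gefitinib against 0 h, 2 for both drugs against DMSO, 3 adaptors with both drugs and 1 cyclin partner with gefitinib, and reversed DNAJC6 for gefitinib against 0 h (0.65) and luteolin against gefitinib (-0.50). Quantile normalization gave 2 genes for both drugs against DMSO and moved CLTC to -0.80 and -0.73 for gefitinib and -0.50 and -0.43 for both drugs against DMSO and 0 h, and to 0.67 for luteolin against gefitinib. Using only the groups compared gave 2 genes for both drugs against DMSO, 1 against gefitinib and 1 in the interaction, and slide as a block 2 for both drugs against DMSO, 1 for luteolin against DMSO and 1 in the interaction.

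Under the file names the counts were 1 for luteolin and 3 for both drugs against DMSO, 4 for both drugs against 0 h, 4 for luteolin against gefitinib and 7 for both drugs against gefitinib. Reversed values were, for luteolin against gefitinib, 0.99 (AAK1), -0.48 (BMP2K), -1.01 (CCNG1), -1.21 (CCNG2), 0.58 (CLTB) and -1.02 (STK16). For both drugs against gefitinib they were 1.27 (AAK1), -1.01 (BMP2K), -1.98 (CCNG2), 0.73 (CLTA) and 1.65 (CLTB), and against luteolin 0.0591 (CCNG1), 0.74 (CLTA) and 0.22 (STK16). Against 0 h they were 0.88 for gefitinib and -0.12 for luteolin (CCNG1), and -0.67 for gefitinib and 0.98 for both (CLTB). Against DMSO gefitinib gave 1.69 (CCNG2), -0.52 (CLTB) and 0.64 (STK16) and luteolin -0.38 (STK16), and the interaction was -0.97 (BMP2K), 0.51 (CLTA) and 1.59 (CLTB). The arrays and their signals were the same in this setting, and only the group names differed.

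Leaving out 1 array at a time, the count of the 10 genes was 1 to 3 for luteolin, 3 for gefitinib and 0 to 3 for both drugs against DMSO, 2 to 4, 3 to 5 and 2 to 3 against 0 h, and 0 for DMSO against 0 h. It was 6 to 7 for luteolin against gefitinib, 2 to 5 and 2 to 4 for both drugs against luteolin and gefitinib, and 0 to 3 for the interaction. A group left with 1 array is assumed to vary like the others. Arrays of the same number correlated at -0.10 to 0.29 in their deviations from the group means. These correlations were above 0.1 for 6 of the 10 pairs of groups. The main fit took no pairing from the numbers, and these values do not settle whether the samples are paired. With a replicate block 2 genes passed for both drugs against DMSO. The change of DNAJC6 in that comparison then had an adjusted p of 0.0153, its change against gefitinib 0.0213, and that of BMP2K with gefitinib 0.0498 (limma).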
